A study of Mus musculus with 21 samples.

Results

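The transcripts described here come from 7 mouse genes that handle the Fc part of immunoglobulin G: the Fc gamma receptor genes Fcgr1, Fcgr2b, Fcgr3 and Fcgr4, the gene of their shared signalling chain Fcer1g, the neonatal Fc receptor gene Fcgrt, and Syk, the kinase downstream of the activating receptors. They were chosen by symbol, after the Ensembl IDs of the deposited gene table had been matched without version to GENCODE M21, and 7 of 7 were found among 23250 genes. All 7 passed the filter on low counts that left 13468 genes for testing. The libraries were made from bone-marrow cells of C57BL/6J background, cultured for 7 days with supernatant of a cell line that secretes GM-CSF. Series text states that the macrophages were MR-deficient, that is, without the mannose receptor encoded by Mrc1, and this holds for every group. FcMR joins the Fc region of human IgG1 to the extracellular part of the mannose receptor, so it carries an Fc part itself. There were 7 groups of 3 libraries, 21 in all: an untreated one (0 h), 3 treated with FcMR and 3 treated with an isotype control protein, each of these sampled at 4, 12 and 24 h. The species and subclass of the isotype control are not given in the labels, nor are the dose, the sex or the age of the mice. No library of untreated cells at 4, 12 or 24 h was used, so the added protein and the time in culture cannot be told apart in comparisons with untreated cells. Nor do the labels say that replicates came from separate mice or cultures, so the p-values measure the spread between these libraries only.

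Fc gamma receptors bind the constant part of IgG in immune complexes or on coated targets. The activating receptors encoded by Fcgr1, Fcgr3 and Fcgr4 pair with the Fc receptor gamma chain, whose ITAM motif is phosphorylated by Src-family kinases and then recruits Syk. Fcgr2b encodes the inhibitory receptor, which carries an ITIM motif and recruits phosphatases that oppose this signal. Fcgrt encodes the heavy chain of FcRn, which pairs with beta-2-microglobulin and returns IgG from endosomes to the cell surface.

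Library totals ranged from 5532225 to 66729533 estimated counts, a 12.1-fold range. Levels are given as CPM, the count relative to the TMM-scaled library total, and the level that 3 counts can show ranged from 0.045 to 0.542 CPM. The titles number the libraries, and the numbers of FcMR 12 h replicate 1 and isotype 4 h replicate 3 each stand where the other would complete its group. The labels were kept as given, whether the pair was exchanged was not tested, and each member call that changes without both libraries is given beside its result. Mrc1 had 0 to 11 counts per library and did not pass the filter. Its highest level before TMM scaling was 0.628 CPM (95% exact interval 0.23 to 1.37, covering counting error only), in isotype 24 h replicate 1. All 8 macrophage markers examined, among them Adgre1, Csf1r, Cd68, Mertk, Itgam, Lyz2 and Cd14, were detected in every group, with a summed level of 20400 to 35200 CPM per library. The 8 dendritic cell markers summed to 1340 to 1850 CPM, the 6 B-cell markers to 3.9 to 8.82 CPM and the 8 mast cell or basophil markers to 18.3 to 56.1 CPM. T- and NK-cell markers summed to 0.495 to 2.44 CPM over the 5 of 7 present in the table.

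Of these genes, 4 lie close together on chromosome 1 of the GRCm38 build: Fcgr2b at chr1:170958617-170976547, Fcgr4 at chr1:171018920-171029761, Fcgr3 at chr1:171051174-171064935 and Fcer1g at chr1:171229572-171234365. Fcgr4 is on the plus strand and the other 3 are on the minus strand. Fcgr1 is at chr3:96282909-96293969 and Fcgrt at chr7:45092990-45103851, both on the minus strand, and Syk is at chr13:52583173-52648792 on the plus strand. All 7 are annotated as protein-coding. Exons of Fcgr2b overlap those of an antisense gene, Gm38204, and the library kit does not mark strand, so reads of that overlap cannot be assigned to one of the genes. Fcgr3, Fcgr4 and Fcgrt also overlap an annotated gene each (Mir6546, Gm26110 and Gm45669), without overlap of exons.

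Fcgr2b and Fcgr3 encode receptors with closely related extracellular domains, and part of their coding sequence is identical. Of the 75-base windows, the read length used, in Fcgr3 transcripts, 94 of 1733 (5.424%) also occurred in Fcgr2b. In Fcgr2b, 313 of 5768 windows (5.426%) occurred in another gene, 94 of them in Fcgr3. The other 5 genes shared no window with any gene. The longest identical run between annotated coding transcripts, 129 bases, is shown because reads within it cannot be told apart by sequence, and an estimated count divides them between both genes. It lies in the coding part of both, at bases 402 to 530 of Fcgr2b-201 and 313 to 441 of Fcgr3-201 (GENCODE M21, GRCm38, minus strand, 5′ to 3′).
Fcgr2b and Fcgr3: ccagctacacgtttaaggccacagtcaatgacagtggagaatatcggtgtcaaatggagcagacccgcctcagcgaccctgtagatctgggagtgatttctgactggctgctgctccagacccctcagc

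Promoter windows of the 250 bases before each RefSeq transcription start (GRCm38.p6) were available for 7 of 7 genes, in 9 windows. Those of Fcgr1 and Fcgr4 are shown because both genes were highest in isotype libraries of 24 h and lower with FcMR at that time, and each holds a match to a motif of STAT or interferon-regulatory factors. Fcgr3 had the same pattern of levels, and its windows hold neither motif. Motifs were searched as plain letters on both strands: TTCNNNGAA (GAS), GAAA followed by any 2 bases and GAAA again (ISRE), and GAGGAA (PU.1). Capitals mark the GAS match in Fcgr1, 109 to 101 bases before the start, and the ISRE match in Fcgr4, 73 to 64 bases before it. The GAS letters read the same on both strands. Sequences are 5′ to 3′ on the strand of the gene.
Fcgr1 (chr3:96293970-96294219, minus strand): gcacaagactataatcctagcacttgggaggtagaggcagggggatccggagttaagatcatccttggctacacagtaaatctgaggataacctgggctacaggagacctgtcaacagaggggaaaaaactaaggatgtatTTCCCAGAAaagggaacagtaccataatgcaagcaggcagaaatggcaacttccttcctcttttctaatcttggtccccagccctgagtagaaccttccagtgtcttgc
Fcgr4 (chr1:171018676-171018925, plus strand): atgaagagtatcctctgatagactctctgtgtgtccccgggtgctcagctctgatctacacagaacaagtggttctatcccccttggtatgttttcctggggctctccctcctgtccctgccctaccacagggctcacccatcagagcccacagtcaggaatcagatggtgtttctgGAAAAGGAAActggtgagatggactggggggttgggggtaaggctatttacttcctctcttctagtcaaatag
Neither GAS nor ISRE letters were found in the windows of the other 5 genes. PU.1 letters were found in windows of Fcgr1, Fcgr3, Fcgr4 and Syk, and none of them overlapped the marked matches. Over 32851 RefSeq promoter windows of this length, GAS letters occur in 7.02%, ISRE letters in 2.98% and PU.1 letters in 23.3%. A match describes the letters only.

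In untreated cells, levels per kilobase of exon placed Fcer1g first, at 594 ± 17.7 CPM per kb (SD, n = 3). Fcgr3 followed at 237 ± 19.3 CPM per kb, Fcgr2b at 64.3 ± 6.17 and Syk at 56.4 ± 0.672. Fcgr1 was at 22.7 ± 2.55 CPM per kb, Fcgrt at 21.9 ± 4.42 and Fcgr4, the receptor that was lowest in these cells, at 4.97 ± 0.833. The intervals of Fcgr1 and Fcgrt overlap, so their order is not resolved. The length is the union of a gene's exons over its transcripts. With the longest transcript in its place, Fcgr2b was at 105 and Syk at 98.5 CPM per kb.

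Against the isotype control at the same time, FcMR-treated cells had more Fcgr2b and Syk transcript at all 3 times and more Fcer1g from 12 h on. Fcgr1 was higher with FcMR at 4 h, by 1.71-fold, and lower at 24 h, by 2.24-fold. At 24 h Fcgr1, Fcgr3 and Fcgr4, the genes of the activating receptors, were all lower with FcMR, while the inhibitory Fcgr2b was 1.84-fold higher. Testing used edgeR's quasi-likelihood test over the 13468 genes, with a call at a Benjamini-Hochberg adjusted p under 0.05. At 4 h 3 of the 7 passed, 3 higher and 0 lower, beside 17.7% of all genes (8.62% higher and 9.13% lower). At 12 h it was 4 of 7, 3 higher and 1 lower, beside 16.1% of all genes (8.61% higher and 7.49% lower). At 24 h it was 6 of 7, 3 higher and 3 lower, beside 20.9% of all genes (11.4% higher and 9.44% lower). The share of higher genes at 4 h depended on the scaling: of the called genes 1161 were higher and 1229 lower, and with RLE factors 1412 and 839. With GC offsets it was 2314 and 1425.

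**Figure D1:**
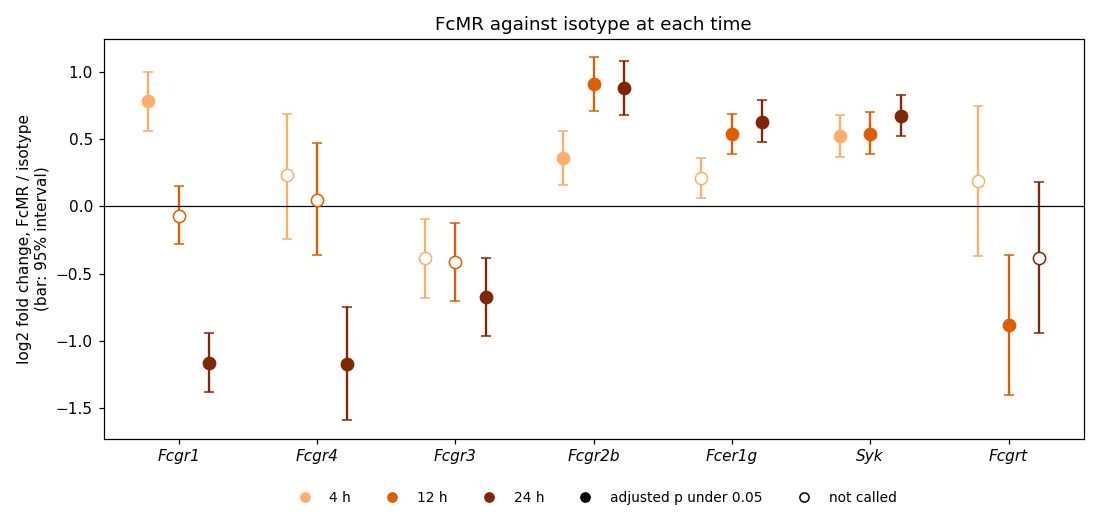
Log2 fold change of FcMR over isotype (vertical axis) for each gene at 4, 12 and 24 h, as estimate and 95% interval from edgeR over 3 libraries a group; filled points have an adjusted p under 0.05. Fcgr2b, Fcer1g and Syk lie above 0 throughout, and Fcgr1, Fcgr4 and Fcgr3 are filled below 0 at 24 h.

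Fcgr1 encodes Fc gamma RI, the high-affinity IgG receptor of macrophages. Library values are given for replicates 1, 2 and 3 in turn. Untreated libraries held 53.7, 66.2 and 56.2 CPM of it. With the isotype control the levels were 77.4, 60.8 and 71.6 CPM at 4 h, 119.8, 107 and 107 at 12 h, and 178, 177 and 179 at 24 h. With FcMR they were 129.5, 123 and 107 CPM at 4 h, 115, 101 and 102 at 12 h, and 84.1, 80.3 and 74.2 at 24 h. The FcMR libraries thus lay above all isotype libraries at 4 h, among them at 12 h and below all of them at 24 h. The log2 fold change was 0.78 (SE 0.104, edgeR adjusted p 4.23e-05) at 4 h and −1.16 (SE 0.103, edgeR adjusted p 1.93e-07) at 24 h. At 12 h it was −0.07, with a 95% interval of −0.28 to 0.15 and an edgeR adjusted p of 0.77. In the order of the group means, isotype 24 h was highest, FcMR 4 h, isotype 12 h and FcMR 12 h overlapped with their neighbours, and FcMR 24 h, isotype 4 h and untreated overlapped below them.

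Fcgr4 encodes Fc gamma RIV, an activating receptor of intermediate affinity. Its levels were low, at 5.73, 7.45 and 5.56 CPM in untreated libraries. Isotype libraries held 5.46, 7.4 and 4.63 CPM at 4 h, 10.04, 8.95 and 9.92 at 12 h, and 24.6, 21.4 and 19.3 at 24 h. FcMR libraries held 8.0, 6.88 and 4.84 CPM at 4 h, 12.3, 9.87 and 8.01 at 12 h, and 9.35, 11.2 and 8.17 at 24 h. The isotype libraries of 24 h stood above every other library, and at 4 and 12 h the treatments overlapped. At 24 h the log2 fold change was −1.17 (SE 0.199, edgeR adjusted p 0.00028). It was 0.23 (95% interval −0.24 to 0.69, edgeR adjusted p 0.546) at 4 h and 0.05 (−0.36 to 0.47, edgeR adjusted p 0.925) at 12 h. Its libraries held 26 to 655 counts, so a change smaller than these intervals was not detectable at this depth.

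Fcgr3 encodes Fc gamma RIII, the low-affinity activating receptor. Untreated libraries held 396, 451 and 389.6 CPM. With the isotype control the levels were 246, 285 and 188 CPM at 4 h, 267, 242 and 218 at 12 h, and 600.4, 601 and 597 at 24 h. FcMR libraries had 199, 192 and 159.7 CPM at 4 h, 216, 167 and 165 at 12 h, and 414, 355 and 363 at 24 h. Both treatments were below untreated at 4 and 12 h, and at 24 h the isotype libraries stood above the untreated ones while the FcMR libraries overlapped them. FcMR fell below isotype at 24 h by 0.67 on the log2 scale (SE 0.138, edgeR adjusted p 0.00167). The differences of −0.38 at 4 h and −0.41 at 12 h did not pass (edgeR adjusted p 0.0659 and 0.0525), and at 4 h the groups overlapped. Without isotype 4 h replicate 3 the 4 h difference was −0.53 and called (edgeR adjusted p 0.00921), and without FcMR 12 h replicate 1 that of 12 h was −0.55 and called (edgeR adjusted p 0.0234). Without both libraries out of title order the differences were −0.53 (edgeR adjusted p 0.00301) and −0.55 (edgeR adjusted p 0.00324), and with a block term for replicate numbers, which no label ties to a mouse or day, −0.38 and −0.41 (edgeR adjusted p 0.0278 and 0.0183), all called. The 4 h difference passed with the block and GC offsets together as well (−0.3, edgeR adjusted p 0.0458). The 12 h difference also passed with limma-voom (adjusted p 0.0412) and with GC offsets (edgeR adjusted p 0.0354).

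The summed level of the granulocyte markers was also lower with FcMR at 24 h, but its members differed in direction. The 10 markers, all in the table, summed to 1410 to 1490 CPM in isotype libraries of 24 h and to 598 to 748 CPM in FcMR libraries. Most of this was Mmp8, at a mean of 1250 and 450 CPM. S100a8 was at 85.3 CPM with isotype and 137 with FcMR and Camp at 2.08 and 2.99, so only these means were higher with FcMR. Lower means with FcMR were those of S100a9 (69.2 and 60.5), Ngp (26 and 13.8), Ltf (12.2 and 2.5) and Cxcr2 (2.37 and 1.69). Mpo was near 0 and also lower (0.247 and 0.0342 CPM). Ly6g, a defining marker, was near 0 in both groups (0.242 and 0.155 CPM), and Elane was at 0.0326 CPM with isotype and at 0 in the 3 FcMR libraries. In untreated cells the sum was 1810 to 1990 CPM and was made up differently, with means of 707 CPM for S100a9, 407 for S100a8 and 369 for Mmp8. Macrophage markers summed to 31000 to 35200 CPM with isotype and 25800 to 27800 CPM with FcMR at 24 h. That sum is mostly Lyz2, at a mean of 28100 and 21700 CPM. Itgam was at 1750 CPM with isotype and 869 with FcMR, whereas Adgre1 was at 836 and 1500, Cd14 at 180 and 824 and Csf1r at 930 and 974. The part of these markers in the result was not tested, and in bulk RNA fewer cells of a type and less RNA per cell cannot be told apart.

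**Figure D2:**
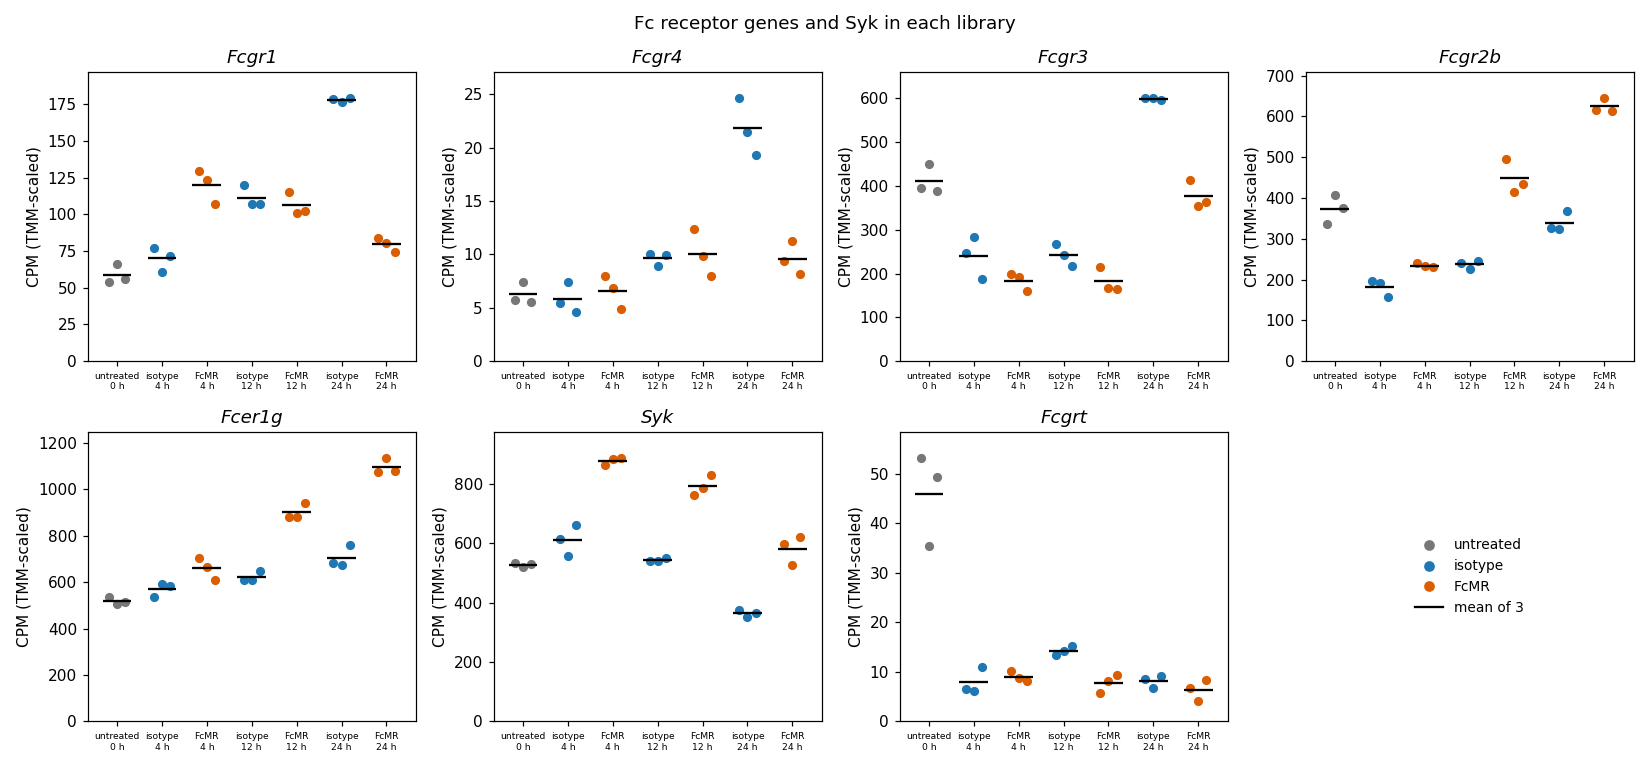
Level of each gene in every library (vertical axis, CPM after TMM scaling, from 0) by group, with 3 libraries as points and their mean as a bar. Fcgr1, Fcgr4 and Fcgr3 are highest in isotype libraries of 24 h, Fcgr2b and Fcer1g in FcMR libraries of 24 h, Syk in FcMR libraries of 4 h and Fcgrt in untreated libraries.

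Fcgr2b, the inhibitory receptor gene, moved the other way. Untreated libraries held 335, 407 and 375 CPM. Isotype libraries held 197, 193 and 158 CPM at 4 h, 241, 227 and 247 at 12 h, and 326, 323 and 369 at 24 h. FcMR libraries held 239.7, 233 and 229.9 CPM at 4 h, 496, 416 and 435 at 12 h, and 616, 645 and 614 at 24 h. FcMR libraries were above every isotype library of the same time, and at 12 and 24 h above the untreated ones too. The log2 fold change was 0.91 (SE 0.095, edgeR adjusted p 2.07e-06) at 12 h and 0.88 (SE 0.0949, edgeR adjusted p 1.97e-06) at 24 h. At 4 h it was 0.36 (SE 0.095, edgeR adjusted p 0.0126). This 4 h call was lost when only the 6 libraries compared were fitted (edgeR adjusted p 0.119), without FcMR 4 h replicate 1 (0.0568) and without isotype 4 h replicate 3, where the difference was 0.27 (edgeR adjusted p 0.0536).

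Dividing an activating receptor gene by Fcgr2b within a library removes the library scaling. This log2 ratio is not corrected for length and is given as a description with no test. In untreated cells the log2 ratio was −2.67 ± 0.06 for Fcgr1, 0.15 ± 0.09 for Fcgr3 and −5.91 ± 0.16 for Fcgr4 (SD, n = 3). The ratio of Fcgr1 was higher with FcMR at 4 h (−0.97 ± 0.12, against −1.38 ± 0.26 with isotype). At 12 h it was −2.08 ± 0.03 with FcMR and −1.1 ± 0.1 with isotype, and at 24 h −2.98 ± 0.09 and −0.93 ± 0.1, a 4.13-fold lower ratio with FcMR. The ratio of Fcgr3 was lower with FcMR at every time, at −0.36 ± 0.15 against 0.38 ± 0.16 at 4 h, −1.31 ± 0.1 against 0.02 ± 0.17 at 12 h and −0.73 ± 0.14 against 0.82 ± 0.11 at 24 h. For Fcgr4 it was −5.18 ± 0.34 against −4.99 ± 0.25 at 4 h, with overlap, −5.5 ± 0.23 against −4.63 ± 0.04 at 12 h and −6.04 ± 0.2 against −3.97 ± 0.27 at 24 h. Fcgr2b is the denominator of all these ratios, and its own level did not overlap between FcMR and isotype at any time. At 12 h the levels of Fcgr1 and Fcgr4 did overlap (log2 fold changes of −0.07 and 0.05), while their ratios did not. A gap in a ratio is therefore in part that of Fcgr2b. At 24 h the FcMR libraries were close to untreated cells in the ratio of Fcgr4 and below them in those of Fcgr1 and Fcgr3.

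**Figure D3:**
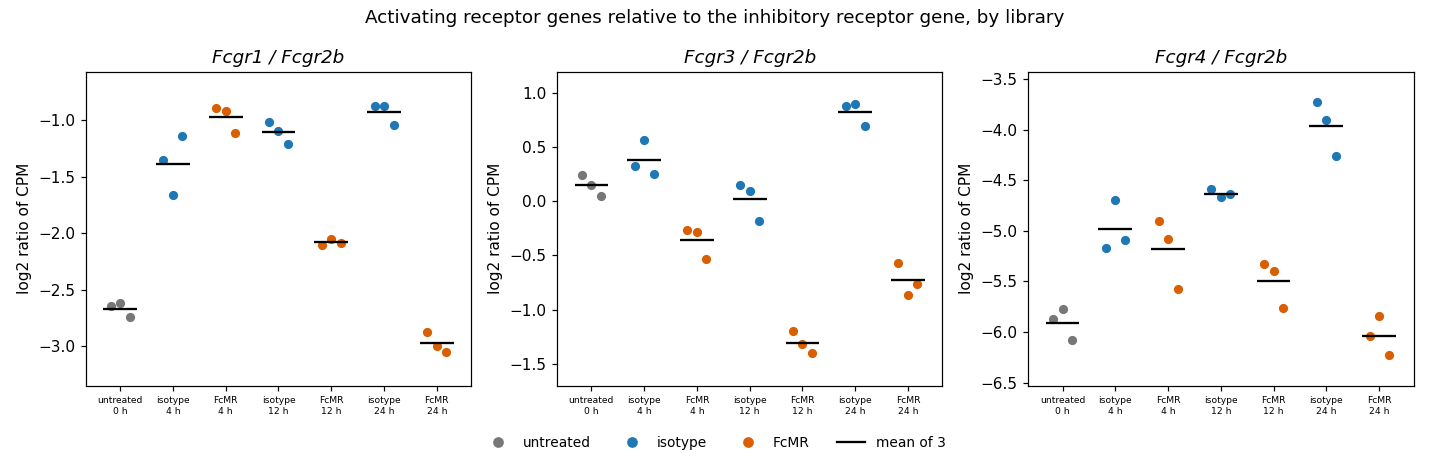
Log2 ratio of Fcgr1, Fcgr3 and Fcgr4 to Fcgr2b in each library (vertical axis) by group, with 3 libraries as points and their mean as a bar. From 12 h on every FcMR library lies below every isotype library of its time in each panel.

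Fcer1g, the gene of the gamma chain on which surface expression and signalling of the activating receptors depend, did not follow Fcgr1, Fcgr3 and Fcgr4. Untreated libraries held 536, 506 and 516 CPM. Isotype libraries had 536, 591 and 583 CPM at 4 h, 607, 608 and 648 at 12 h, and 683, 675 and 758 at 24 h. With FcMR the levels were 703, 667 and 607 CPM at 4 h, 881, 880.1 and 941 at 12 h, and 1072, 1132 and 1080.1 at 24 h. FcMR libraries lay above all isotype libraries at each time. Against isotype Fcer1g was higher by 0.54 (SE 0.0716, edgeR adjusted p 3.3e-05) at 12 h and by 0.63 (SE 0.0717, edgeR adjusted p 3.5e-06) at 24 h on the log2 scale. At 4 h its difference of 0.21 did not pass (edgeR adjusted p 0.053), and it passed with RLE factors (0.27, edgeR adjusted p 0.0102) and with DESeq2 (0.28, adjusted p 9.75e-05). It also passed without FcMR 4 h replicate 3 (0.32, edgeR adjusted p 0.00955) and without isotype 4 h replicate 2 (0.27, edgeR adjusted p 0.0294).

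Syk encodes the tyrosine kinase that docks on phosphorylated ITAMs. Untreated libraries held 532, 521 and 531 CPM. Isotype libraries were at 614, 558 and 659.9 CPM at 4 h, 541, 540.0 and 550.4 at 12 h, and 374, 352 and 366 at 24 h. FcMR libraries were at 863, 883 and 886 CPM at 4 h, 763, 786 and 831 at 12 h, and 596, 526 and 622 at 24 h. Every FcMR library was above every isotype library of its time, and in both treatments the mean was lower at 24 h than at 4 h. The log2 fold changes were 0.52 (SE 0.0725, edgeR adjusted p 6.36e-05), 0.54 (SE 0.0724, edgeR adjusted p 3.18e-05) and 0.67 (SE 0.0727, edgeR adjusted p 1.97e-06) at 4, 12 and 24 h.

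Tyrobp encodes DAP12, a second ITAM adaptor that recruits Syk. In FcMR libraries its mean was 655 ± 26.7, 373 ± 46.7 and 439 ± 142 CPM at 4, 12 and 24 h, and in isotype libraries it was 529.9 ± 165, 592 ± 52.8 and 852 ± 45.7 CPM (SD, n = 3). At 4 h the log2 difference was 0.31 and not called (edgeR adjusted p 0.354). Tyrobp was lower with FcMR than with isotype at 12 h (−0.66, edgeR adjusted p 0.0359) and at 24 h (−0.96, edgeR adjusted p 0.00251), when Fcer1g was higher with FcMR. The 12 h call was lost without FcMR 12 h replicate 1 (−0.57, edgeR adjusted p 0.133), replicate 2 (0.0545) or replicate 3 (0.059), and without isotype 12 h replicate 1 (0.0989) or replicate 3 (0.0972).

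For the other receptor and signalling genes the order of the group means, from highest to lowest, also held overlaps. For Fcgr2b it was FcMR 24 h, FcMR 12 h, untreated, isotype 24 h, isotype 12 h, FcMR 4 h and isotype 4 h, where untreated overlapped isotype 24 h and isotype 12 h overlapped FcMR 4 h. For Fcgr3 isotype 24 h came first, then untreated and FcMR 24 h, which overlapped, and then the 4 groups of 4 and 12 h, each overlapping the next. For Fcgr4 isotype 24 h came first, and FcMR 12 h, isotype 12 h and FcMR 24 h overlapped, as did FcMR 4 h, untreated and isotype 4 h below them. For Fcer1g FcMR 24 h and FcMR 12 h came first without overlap, isotype 24 h, FcMR 4 h and isotype 12 h overlapped in turn, and isotype 4 h overlapped untreated at the low end. For Syk FcMR 4 h and FcMR 12 h came first without overlap, isotype 4 h, FcMR 24 h and isotype 12 h overlapped in turn, and untreated and isotype 24 h followed without overlap.

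Fcgrt had its highest level before treatment. Untreated libraries held 53.1, 35.4 and 49.3 CPM. Isotype libraries held 6.46, 6.13 and 11.01 CPM at 4 h, 13.3, 14.2 and 15.3 at 12 h, and 8.53, 6.75 and 9.14 at 24 h. FcMR libraries held 10.2, 8.76 and 8.2 CPM at 4 h, 5.65, 8.12 and 9.37 at 12 h, and 6.78, 4.23 and 8.29 at 24 h. All 18 treated libraries were below all 3 untreated ones, and the treatments overlapped at 4 and 24 h. At 12 h Fcgrt was lower with FcMR by −0.88 on the log2 scale (SE 0.247, edgeR adjusted p 0.0185). That call was lost without FcMR 12 h replicate 1 (−0.71, edgeR adjusted p 0.0851) and without isotype 12 h replicate 3 (−0.83, edgeR adjusted p 0.065). At 4 and 24 h the differences were 0.19 (95% interval −0.37 to 0.75, edgeR adjusted p 0.693) and −0.38 (−0.94 to 0.18, edgeR adjusted p 0.371).

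B2m, the light chain that pairs with FcRn and with MHC class I, was at 2070 CPM in untreated cells and higher in all treated groups. In FcMR libraries its mean was 4220.0 ± 411, 4929 ± 173 and 6147 ± 487 CPM at 4, 12 and 24 h, and in isotype libraries it was 3327 ± 256, 4244 ± 282 and 4927 ± 219 CPM (SD, n = 3). Against isotype it was higher with FcMR by 0.34 (edgeR adjusted p 0.0104) at 4 h and 0.32 (edgeR adjusted p 0.0132) at 24 h on the log2 scale. Its 0.22 at 12 h did not pass (edgeR adjusted p 0.112). The 4 h call was lost without FcMR 4 h replicate 1 (0.0673) or isotype 4 h replicate 1 (0.0526) and in the fit of the groups compared (0.134). The 24 h call was lost with GC offsets (0.133), without FcMR 24 h replicate 2 (0.0647) and without isotype 24 h replicate 2 (0.0546).

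Compared with untreated cells, the isotype control was followed at 24 h by higher Fcgr1 and Fcgr4 and lower Fcgrt and Syk. These comparisons share the untreated libraries with those of FcMR, and values are given side by side. Fcgr1 with isotype differed from untreated by 0.25 (not called, edgeR adjusted p 0.0669), 0.92 and 1.6 on the log2 scale at 4, 12 and 24 h, and with FcMR by 1.03, 0.85 and 0.44. Fcgr2b differed by −1.03, −0.64 and −0.13 with isotype, the last not called, and by −0.67, 0.27 and 0.75 with FcMR. For Fcgr3 these differences were −0.78, −0.77 and 0.54 with isotype, and −1.17, −1.17 and −0.13 with FcMR, the last not called. Fcgr4 differed by −0.13 (not called), 0.62 and 1.79 with isotype, and by 0.1 (not called), 0.67 and 0.62 with FcMR. Both treatments were followed by less Fcgrt at every time, by −2.52, −1.68 and −2.49 with isotype and −2.33, −2.56 and −2.88 with FcMR.

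Fcer1g against untreated was 0.13 (not called), 0.26 and 0.44 with isotype and 0.34, 0.79 and 1.08 with FcMR. Syk was 0.21, 0.04 (not called) and −0.54 with isotype, and 0.73, 0.59 and 0.14 (not called) with FcMR. With GC offsets Syk with FcMR at 24 h was 0.36 and called (edgeR adjusted p 0.00347), and it was also called with DESeq2 (0.17, adjusted p 0.0221) and without both libraries out of title order (0.18, edgeR adjusted p 0.0298). GC offsets also ended the 12 h call of Fcer1g with isotype (0.18, edgeR adjusted p 0.0849) and gave calls at 4 h for Fcer1g (0.24, edgeR adjusted p 0.0283) and Fcgr1 (0.33, edgeR adjusted p 0.0318) and at 24 h for Fcgr2b (−0.17, edgeR adjusted p 0.0464), all with isotype. The authors' factors ended the 24 h call of Fcgr1 with FcMR (0.36, edgeR adjusted p 0.0636), and a fit of the groups compared alone the 12 h call of Fcgr2b with FcMR (0.28, edgeR adjusted p 0.12). At 4 h with isotype 4 of these 7 passed, 1 higher and 3 lower, beside 35.6% of all genes (20.4% higher and 15.2% lower). At 12 h 6 were called, 3 each way, beside 41.6% (22% and 19.6%), and at 24 h 6, 4 higher and 2 lower, beside 42.2% (21.3% and 20.9%). With FcMR 6 were called at 4 h, 3 each way, beside 48.2% of all genes (22.3% and 25.9%). At 12 h 7 were called, 5 higher and 2 lower, beside 48.1% (24.7% and 23.4%), and at 24 h 5, 4 higher and 1 lower, beside 51.4% (26% and 25.4%).

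Several of these smaller differences changed sides of the threshold when a single library was left out. Syk with isotype at 4 h (edgeR adjusted p 0.0312) was not called without any one of the untreated libraries or of isotype 4 h replicates 1 and 3 (0.0686 to 0.115). Nor was it called without both libraries out of title order (0.105), with no filter (0.451), with the authors' factors (0.0801) or with the groups compared alone (0.183). Fcgr4 with isotype at 12 h was not called without untreated replicate 1 or 3 or isotype 12 h replicate 1 or 3 (0.0521 to 0.0798). With FcMR it was not called at 12 h without FcMR 12 h replicate 1 (0.0595), nor at 24 h without untreated replicate 1 or 3 or FcMR 24 h replicate 2 (0.0598 to 0.0788). Fcgr2b with FcMR at 12 h was not called without untreated replicate 1 or 3 or FcMR 12 h replicate 1 (0.0505 to 0.121). Calls gained in the same way were Fcgr1 with isotype at 4 h, without untreated replicate 2 (0.0237) or isotype 4 h replicate 2 (0.0435), and Syk with FcMR at 24 h, without FcMR 24 h replicate 2 (0.25, edgeR adjusted p 0.00675).

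Whether the FcMR difference was the same at the 3 times was asked with a joint edgeR test. The joint test takes the difference at 12 h and that at 24 h together, each minus that at 4 h. It called 4 of the 7 genes, beside 11% of all genes. Each adjusted p in this paragraph is that of the joint test. The change and SE printed beside it are of 24 h minus 4 h alone, so the p does not test that change by itself. From 4 h to 24 h the FcMR minus isotype difference of Fcgr1 changed by −1.94 (SE 0.146, edgeR adjusted p 7.7e-07) and that of Fcgr4 by −1.4 (SE 0.295, edgeR adjusted p 0.00586). The difference of Fcgr2b changed by 0.52 (SE 0.134, edgeR adjusted p 0.0149) and that of Fcer1g by 0.43 (SE 0.101, edgeR adjusted p 0.0203). For Syk (0.15, edgeR adjusted p 0.569), Fcgr3 (−0.28, edgeR adjusted p 0.567) and Fcgrt (−0.57, edgeR adjusted p 0.141) a change with time was not called. The calls of Fcgr2b and Fcer1g were lost with RLE factors (edgeR adjusted p 0.0575 and 0.0508), no filter (0.159 and 0.318), the authors' factors (0.126 and 0.0987) and the groups compared alone (0.0521 and 0.0858), which leaves 2 of 7 called in each. Fcgr2b was also not called without FcMR 4 h replicate 2 or 3, isotype 4 h replicate 1 or 2, or isotype 24 h replicate 2 (0.0503 to 0.13), and Fcer1g without FcMR 4 h replicate 3, isotype 4 h replicate 2, or isotype 24 h replicate 1 or 2 (0.067 to 0.147). Fcgrt was called without isotype 4 h replicate 3 (−0.92, edgeR adjusted p 0.0312), without both libraries out of title order (−0.93, edgeR adjusted p 0.0418) and with GC offsets (−0.4, edgeR adjusted p 0.00559).

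Genes that act with the receptors were read from 4 lists and are described by counts and medians, with no test of a list. The shares of all genes called higher and lower, beside which each list's counts stand, are 8.62% and 9.13% at 4 h, 8.61% and 7.49% at 12 h, and 11.4% and 9.44% at 24 h. The 34 genes of ITAM and Fc receptor signalling were all tested. With FcMR, 9 passed as higher and 4 as lower at 4 h, 6 against 3 did so at 12 h, and 5 against 5 at 24 h. The count of higher genes ranged over the alternatives from 5 with the groups compared alone to 15 with the replicate block and GC offsets at 4 h (14 with GC offsets alone), and at 12 h from 4 to 11 (10 with GC offsets). Without both libraries out of title order it was 12 at 4 h. Their median log2 fold change was 0.13, 0.04 and 0.03, beside −0.07, −0.02 and 0.01 over all genes. Malt1, a partner of Card9 and Bcl10, was higher with FcMR by 0.5 at 4 h, 1.24 at 12 h and 1.53 at 24 h. Its means at 12 and 24 h were 561.5 and 404.3 CPM with FcMR and 238.4 and 140.3 with isotype, against 399.6 in untreated cells. Lcp2, which encodes the adaptor SLP-76, was higher with FcMR by 0.74, 0.89 and 0.31 at 4, 12 and 24 h. Lat2, which encodes the adaptor NTAL, had log2 changes of −0.6, −1.0 and −1.67 at 4, 12 and 24 h, and reached 46.3 ± 0.511 CPM with FcMR against 148 ± 8.8 with isotype (SD, n = 3). The exchange factor gene Vav2 was lower with FcMR at 4 h (−0.74) and 12 h (−0.56), and its −0.29 at 24 h was not called (edgeR adjusted p 0.146). The kinase gene Tec was lower at all 3 times (−0.53, −0.84 and −1.01). Src was higher with FcMR by 1.33 at 4 h and 1.28 at 24 h, and the difference of Lat was −1.12 at 24 h.

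The calls of Src and Lat were lost when any one of several libraries was left out. Src was not called at 4 h without FcMR replicate 2 or 3 or isotype replicate 1 or 2 (edgeR adjusted p 0.0539 to 0.0926), nor at 24 h without FcMR replicate 1 or 3 or any isotype library (0.0537 to 0.119). Lat was not called without FcMR 24 h replicate 1 or 2 or any isotype library of 24 h (0.0623 to 0.182). At 4 h the list held 2 lower genes without FcMR 4 h replicate 3. At 24 h it held 3 higher genes without any one isotype library, 8 lower without FcMR 24 h replicate 3 and 3 lower without isotype 24 h replicate 1. These repeats of the list counts were chosen after the data had been seen, as were those of the lists that follow.

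The 24 genes of inhibitory signalling and ITIM receptors were all tested. With FcMR, 5 passed as higher and 7 as lower at 4 h, 3 against 7 at 12 h, and 3 against 11 at 24 h. The median was −0.07, −0.34 and −0.57 at these times, and over all genes it was −0.07, −0.02 and 0.01, so the list's median equalled that of all genes at 4 h and was below it at 12 and 24 h. Without both libraries out of title order the 4 h counts were 7 against 7. Cd300a, which encodes an ITIM receptor of myeloid cells, was lower with FcMR at all 3 times, with log2 differences of −0.99, −1.29 and −1.48. Cd200r1, an inhibitory receptor gene, was lower with FcMR by −0.85, −1.06 and −1.07 at 4, 12 and 24 h. The ITIM lectin gene Clec4a2 was lower by −0.68, −1.12 and −1.21, all called. For the adaptor gene Dok2 the differences of −1.21 at 12 h and −1.16 at 24 h were called. Its −0.88 at 4 h was not (edgeR adjusted p 0.0702). Siglece, an inhibitory sialic-acid receptor gene, was higher with FcMR by 0.75, 1.22 and 1.61 at 4, 12 and 24 h, and Pilra by 0.67, 0.79 and 0.77. Pecam1 was higher with FcMR by 1.2 at 12 h. That call was lost without FcMR 12 h replicate 3 (0.57, edgeR adjusted p 0.282), isotype 12 h replicate 2 (0.101) or isotype 12 h replicate 3 (0.159). The 4 h call of Siglece was lost without FcMR 4 h replicate 1 (0.0611). At 4 h the list held 2 or 3 higher genes without FcMR 4 h replicate 1 or 2 or isotype 4 h replicate 1, and 3 or 4 lower ones without FcMR 4 h replicate 2 or 3 or isotype 4 h replicate 1 or 2.

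Other receptors that pair with the gamma chain or DAP12 split in both directions, with 21 of 23 tested. At 4 h 3 passed as higher and 4 as lower, at 12 h 7 against 8, and at 24 h 6 against 7, with medians of −0.19, −0.26 and −0.19. Clec4e, the gene of Mincle, a lectin that signals through the gamma chain, was higher with FcMR by 0.78, 1.8 and 4.12. Its means at 4, 12 and 24 h were 3286, 4131 and 3328 ± 762 CPM with FcMR and 1915, 1186 and 191 ± 7.33 with isotype (SD, n = 3). Trem1, a DAP12-coupled receptor gene, was higher with FcMR by 0.73, 1.82 and 2.57 at 4, 12 and 24 h. Trem3 was higher by 1.69 at 12 h and 2.78 at 24 h, and its 0.49 at 4 h was not called (edgeR adjusted p 0.195). With FcMR Trem1 was at 51.48 CPM at 4 h, 30.38 at 12 h and 33.27 at 24 h, against 74.1 in untreated cells. With isotype it was at 5.565 CPM at 24 h. Trem2, also coupled to DAP12, was lower with FcMR at 12 h (−1.31) and 24 h (−1.51). Cd300lb was lower with FcMR at all 3 times (−1.95, −2.25 and −1.28). Clec7a, which encodes the beta-glucan receptor Dectin-1, was lower at 4 h (−0.76) and 12 h (−0.81). Its −0.15 at 24 h was not called (edgeR adjusted p 0.525). At 4 h the count of lower genes was 8 without isotype 4 h replicate 3, and 2 without FcMR 4 h replicate 3 or isotype 4 h replicate 2. At 12 h it was 5 without FcMR 12 h replicate 2 or 3 or isotype 12 h replicate 1.

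**Figure D4:**
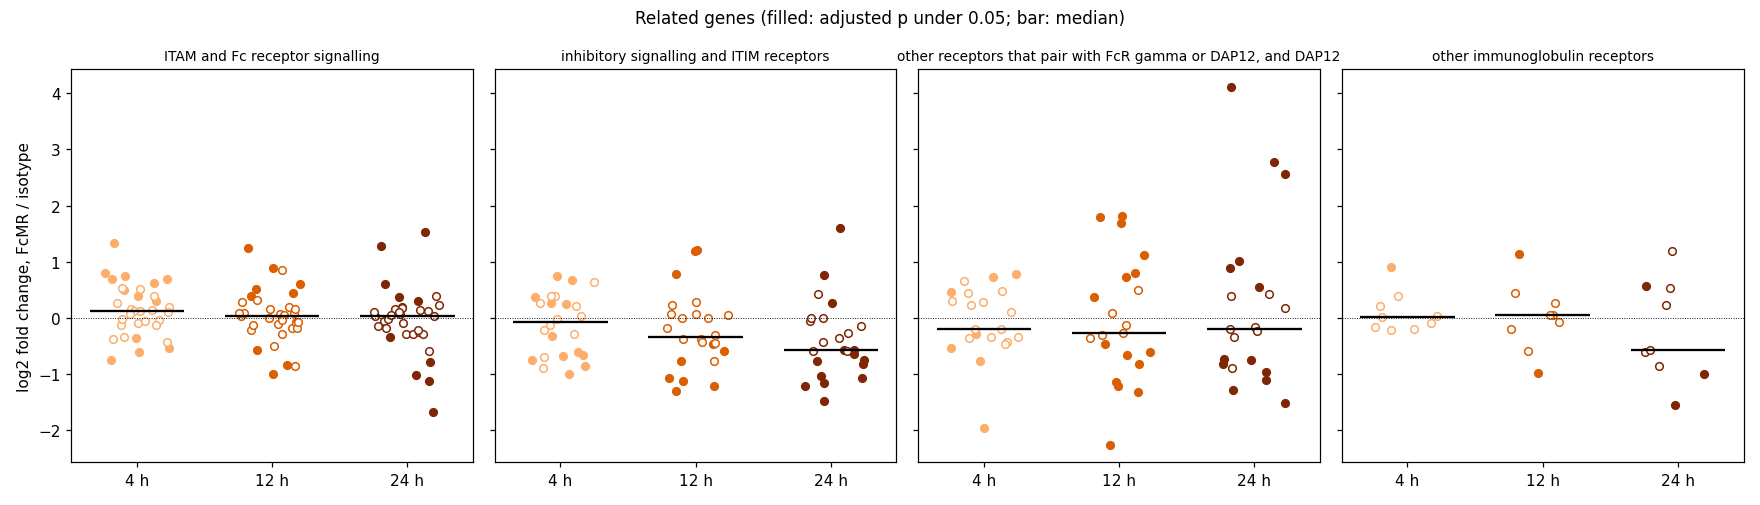
Log2 fold change of FcMR over isotype (vertical axis) for each tested gene of 4 lists at 4, 12 and 24 h; filled points have an edgeR adjusted p under 0.05 and bars are medians. The inhibitory list has 11 of 24 genes called lower at 24 h, and Clec4e is the point at 4.12 in the list of receptors that pair with the gamma chain or DAP12.

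Among other immunoglobulin receptors 9 of 15 genes were tested. With FcMR 1 passed as higher and 0 as lower at 4 h, 1 against 1 at 12 h, and 1 against 2 at 24 h, with medians of 0.02, 0.05 and −0.56. Trim21, which encodes a receptor for the Fc part of IgG in the cytosol, was at 14.2 CPM in untreated cells. Against isotype it was higher with FcMR by 0.91, 1.14 and 0.57 on the log2 scale at 4, 12 and 24 h. Its level at 4 h was 175 ± 13.8 CPM in FcMR libraries and 93.2 ± 6.65 CPM in isotype libraries (SD, n = 3). At 12 and 24 h its means were 88.3 and 41.3 CPM with FcMR and 40.07 and 27.92 CPM with isotype. Lgals3, which encodes galectin-3, an IgE-binding lectin, was lower with FcMR at 12 h (−0.98) and 24 h (−1.0), and Fcrls, an Fc receptor-like gene, at 24 h (−1.54). The gene symbol Fcmr in this list stands for the IgM receptor and not for the added protein.

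Over the 21 libraries the log2 CPM of Fcgr1 and Fcgr4 correlated at r = 0.75, that of Fcgr2b and Fcer1g at 0.74, and that of Fcgr3 and Syk at −0.89. The libraries share treatments and times, so these values are descriptions. By the same measure the 3 genes most like Fcgr1 were Cap1 (0.885), Cd72 (0.874) and Mertk (0.854), and those most like Fcgr4 were Vwa8 (0.904), Atf7ip2 (0.89) and Kif3a (0.882). Fcgr2b was most like Nr4a2 (0.935), Pik3cg (0.904) and Ppp1r9a (0.897), and Fcgr3 most like Sort1 (0.969), Txndc16 (0.951) and Xpr1 (0.942). For Fcer1g they were Sqor (0.957), Pilrb1 (0.95) and Pilrb2 (0.95), the last pair being near-identical genes whose counts are uncertain. Syk was most like Itgal (0.973), Socs3 (0.964) and St3gal1 (0.96), and Fcgrt most like Tmem151a (0.954), Stk10 (0.951) and Lsr (0.949).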

How the data were processed

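Per the submitters' processing notes, CASAVA 1.8.2, kallisto 0.44.0 and DESeq2 were used, with builds mm10 and GRCm38. Reads were 75 bp single ends from a TruSeq RNA kit, per the labels. The authors deposited a table they call raw, which was taken to hold estimated counts per gene, since its values are whole numbers and rounding changed 0 of them. Its lowest sum per gene is 10. Plain counts had been assumed when the tests were chosen, and the test was kept because it also takes estimated counts. The authors also deposited a normalized table on a linear signal scale, which divides the first by a factor per gene and library whose geometric mean is 1 for each of the 13034 genes without a 0.

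IDs without version matched GENCODE M21 (GRCm38) for 23206 of 23250 genes. The main test was edgeR 4.0.16 (R 4.3.3), quasi-likelihood, 1 coefficient per group over 21 libraries, TMM, filterByExpr with a minimum of 10 counts, and Benjamini-Hochberg adjustment over 13468 genes. It was checked on simulated data. Each library counted as 1 sample. The lowest chi-square, relative to its degrees of freedom, between replicates of a group was 2.98, above sampling noise. This value cannot tell libraries of separate mice or cultures from separate libraries of the same culture. The members and lists were chosen with earlier results of these data known. From each list, the 2 most raised and the 2 most lowered called genes at each time are named, at an average log2 CPM of at least 1, besides B2m, Tyrobp and Mrc1, and 1 gene so chosen is not reported here. Likeness is Pearson r of log2 CPM with a prior count of 2. Alternatives were RLE factors, no filter, a filter at a mean of 10 counts, and tests with DESeq2 1.42.0 and limma-voom (limma 3.58.1), besides the authors' factors, GC offsets, the replicate block, the groups compared alone, and leaving out libraries.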

Additional observations from a re-analysis of the deposited data

Results flagged for a closer look

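The difference between FcMR and isotype was not the same at the 3 times for 4 of the 7 genes by the joint edgeR test. The same test called 11% of all genes. With RLE factors, no filter, the authors' factors or the groups compared alone 2 of the 7 were called, and Fcgr2b and Fcer1g were not among them. The FcMR minus isotype log2 difference of Fcgr1 changed by −1.94 from 4 h to 24 h, from higher to lower with FcMR, and that of Fcgr4 by −1.4. The difference grew by 0.52 for Fcgr2b and by 0.43 for Fcer1g.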

How the results depend on the processing

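None of the members' calls changed sign in any alternative. The 6 calls of FcMR against isotype at 24 h held in each of 17 alternatives, with ranges of −1.2 to −1.02 for Fcgr1, −1.31 to −1.07 for Fcgr4, −0.73 to −0.62 for Fcgr3, 0.82 to 0.95 for Fcgr2b, 0.61 to 0.7 for Fcer1g and 0.63 to 0.8 for Syk. The same held for Fcgr1 and Syk at 4 h and for Fcgr2b, Fcer1g and Syk at 12 h. Over all member results, 8 calls were gained and 29 lost when 1 library was left out, with 467 on the same side, and 25 were gained and 17 lost in other alternatives, with 728 on the same side.

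The joint test called 2 of 7 genes, against 4, with RLE factors, no filter, the authors' factors and the groups compared alone, and 2 to 5 when a library was left out. Leaving out a library gave 2 to 4, 3 to 4 and 6 to 6 called genes for FcMR against isotype at 4, 12 and 24 h, 3 to 5, 5 to 6 and 6 to 6 for isotype against untreated, and 6 to 6, 5 to 7 and 4 to 5 for FcMR against untreated. The authors' normalized table gave −0.87 and −1.93 for the log2 ratio of Fcgr1 to Fcgr2b, FcMR minus isotype, at 12 and 24 h, against −0.98 and −2.05.

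Counts over all genes moved more. At 4 h 2390 genes were called, against 868 with the groups compared alone, 3739 with GC offsets, 1589 without FcMR 4 h replicate 2 and 3898 without both libraries out of title order (FcMR 12 h replicate 1 and isotype 4 h replicate 3). At 12 h GC offsets gave 3386 against 2169. Isotype against untreated at 4 h gave 2881 against 4792 with the groups compared alone. The joint test gave 1484, against 925 with no filter, 2945 with GC offsets, 2616 without both libraries, 973 without FcMR 4 h replicate 2 and 2294 without isotype 4 h replicate 3. With no filter the median log2 difference of all genes at 4 h was 0.046 against −0.073, and −0.102 against 0 for isotype against untreated. Without both libraries, 9 of the genes that pair with the gamma chain or DAP12 were lower at 4 h, against 4. The cause was not tested.

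Replicate numbers are shared by the groups, but no label says that they mark a mouse or day, and same-numbered libraries deviated together in no comparison by r over 0.1 in all 3 pairs (means of −0.071, 0.106 and 0.014 for FcMR against isotype). For each library the best-correlated of the 3 replicate numbers was taken, and for 12 of 21 it was their own. The count expected by chance was not computed, and the main test has no term for replicate numbers. With the replicate block Fcgr3 was called at 4 h (−0.38, edgeR adjusted p 0.0278) and 12 h (−0.41, edgeR adjusted p 0.0183). No other call of a member changed with the block alone. Depth limits Fcgr4 and Fcgrt most, whose libraries held as few as 26 and 34 counts.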
